A study of Mus musculus with 3 samples.

Results

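The regions described here are those parts of the mouse cerebellum genome, recovered with an antibody against 5-hydroxymethylcytosine (5hmC), in which 5hmC was at least as frequent as all other states of the CpG cytosine combined. They were chosen as follows. The peaks of 3 immunoprecipitations were merged where they overlapped by at least 1 bp on chromosomes 1 to 19, which gave 13285 regions. The base-calls of all 3 replicates were summed in each region, and a region was tested if it held at least 15 calls and no CpG with 20 or more calls in a replicate. Of the 3924 tested regions, 541 had 5hmC in at least 50% of calls. These 541 are called 5hmC-dominated below, and the remaining 3383 the other tested regions. The 5hmC share chose them, so the share in the pooled calls is a description of the choice and was not tested.

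The libraries were hydroxymethylated DNA immunoprecipitation (hMeDIP) reactions on sonicated cerebellum DNA, sequenced without amplification on nanopore flow cells. All 3 carried the label of the same C57Bl6Cr female, 8 weeks of age, so p-values over replicates measure technical spread and no difference between animals. Whole serum against 5hmC was used in replicate 1, while IgG-purified antibody was used in replicates 2 and 3, so that an effect of the serum and of replicate 1 cannot be told apart. The whole cerebellum mixes many cell types, the files hold no expression values against which the tissue label could be checked, and a share of calls cannot tell a site modified in part of the cells from a class of cells modified throughout.

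5hmC is made from 5-methylcytosine (5mC) by the TET dioxygenases. It can be an intermediate on the way to the unmodified base or persist as a mark of its own, and neurons are known for high levels of it, in particular in the bodies of genes. Conventional bisulfite sequencing reads 5mC and 5hmC alike, whereas the nanopore base-caller assigns each CpG of each read to 5hmC, 5mC or unmodified C. Nothing in that procedure requires a fragment caught by the antibody to have 5hmC at most of its CpGs.

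The reference sequence of 5 of the 5hmC-dominated regions shows how the calls lie along the DNA. They are the members with the most calls, except that the window of Emilin3 touched an untranslated region and was passed over. Each line gives up to 300 bases of the forward strand of GRCm39 around the median CpG position, and capitals mark a CpG whose pooled calls were more than 50% 5hmC.
Tob2, chr15:81735493-81735792: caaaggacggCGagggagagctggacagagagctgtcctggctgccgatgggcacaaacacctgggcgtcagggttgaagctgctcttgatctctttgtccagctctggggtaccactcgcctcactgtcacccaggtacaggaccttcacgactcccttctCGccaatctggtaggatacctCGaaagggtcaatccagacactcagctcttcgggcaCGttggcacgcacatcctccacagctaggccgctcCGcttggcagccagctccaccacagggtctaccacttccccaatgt
Region outside genes, chr1:134267338-134267637: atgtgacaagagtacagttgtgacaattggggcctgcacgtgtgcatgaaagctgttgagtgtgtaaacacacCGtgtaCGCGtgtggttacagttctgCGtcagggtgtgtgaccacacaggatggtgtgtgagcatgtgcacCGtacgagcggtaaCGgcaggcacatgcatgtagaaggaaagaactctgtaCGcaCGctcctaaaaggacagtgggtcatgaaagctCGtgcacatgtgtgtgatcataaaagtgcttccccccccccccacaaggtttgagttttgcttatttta
Rbfox3, chr11:118458160-118458459: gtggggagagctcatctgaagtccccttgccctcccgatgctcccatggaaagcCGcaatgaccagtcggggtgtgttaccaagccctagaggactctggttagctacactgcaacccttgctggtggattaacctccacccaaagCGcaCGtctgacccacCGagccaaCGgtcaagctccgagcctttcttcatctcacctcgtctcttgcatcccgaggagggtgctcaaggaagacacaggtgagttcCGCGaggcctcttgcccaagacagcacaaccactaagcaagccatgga
Syne1, chr10:5032254-5032553: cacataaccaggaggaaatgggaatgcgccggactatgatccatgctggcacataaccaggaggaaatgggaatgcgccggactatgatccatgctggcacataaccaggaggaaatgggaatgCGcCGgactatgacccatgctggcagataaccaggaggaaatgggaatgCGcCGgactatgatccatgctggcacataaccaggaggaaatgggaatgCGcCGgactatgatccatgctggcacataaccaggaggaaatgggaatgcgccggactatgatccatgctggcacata
Elmo2, chr2:165164026-165164325: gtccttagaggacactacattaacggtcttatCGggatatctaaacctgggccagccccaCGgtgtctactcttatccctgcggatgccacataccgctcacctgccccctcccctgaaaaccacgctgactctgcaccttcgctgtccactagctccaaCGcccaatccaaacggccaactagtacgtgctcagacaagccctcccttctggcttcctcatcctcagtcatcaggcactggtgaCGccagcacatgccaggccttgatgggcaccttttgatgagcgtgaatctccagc
In the window of Tob2 5 of 13 CpGs were in capitals, in that of the region outside genes 9 of 12, in Rbfox3 7 of 12, in Syne1 6 of 12 and in Elmo2 4 of 12. In the same order 5hmC made up 40.5% of 42, 70.9% of 55, 56.9% of 65, 54.3% of 35 and 52.8% of 36 calls in the windows. The Tob2 window itself thus lay below 50%. CpGs with a majority of 5hmC stood between CpGs without one in every window, at few calls each. The Syne1 window is a tandem repeat, in which 98.4% of bases equal the base 49 positions further on. Regions of this kind were rare, with 2 of 541 5hmC-dominated and 15 of 3383 other tested regions holding such self-similarity of at least 70% at a distance of 10 to 300 bases, which is 0.370% and 0.443%.

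For contrast, the tested regions with the lowest share and at least 30 calls had no 5hmC call at all. They are shown because they too were peaks in the immunoprecipitated DNA. Whether the antibody bound this DNA was not tested.
Region without 5hmC on chromosome 4, chr4:118404884-118405183: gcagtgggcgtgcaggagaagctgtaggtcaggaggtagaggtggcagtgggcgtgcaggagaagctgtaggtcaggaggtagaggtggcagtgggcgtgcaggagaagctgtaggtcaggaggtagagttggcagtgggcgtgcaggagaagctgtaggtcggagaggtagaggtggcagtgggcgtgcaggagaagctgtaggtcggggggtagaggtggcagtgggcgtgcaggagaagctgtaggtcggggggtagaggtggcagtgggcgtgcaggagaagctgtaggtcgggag
Region without 5hmC on chromosome 14, chr14:3050758-3051057: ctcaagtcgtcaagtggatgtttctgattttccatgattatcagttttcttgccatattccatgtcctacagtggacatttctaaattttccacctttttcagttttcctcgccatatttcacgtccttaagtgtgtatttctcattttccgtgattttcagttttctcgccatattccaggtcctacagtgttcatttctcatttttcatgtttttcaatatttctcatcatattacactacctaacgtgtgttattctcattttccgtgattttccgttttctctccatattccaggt
The region on chromosome 4 had 0 of 77 calls as 5hmC and that on chromosome 14 had 0 of 62. In the printed windows 20 of 23 and 48 of 56 calls were 5mC. The chromosome 4 window repeats itself every 44 bases at 84.0% of positions.

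The 5hmC-dominated regions were small sets of calls. Their median number of calls was 20 (quartiles 17 and 27, maximum 135) over a median of 10 called CpGs, against 25 calls over 12 CpGs in the other tested regions. The most often called CpG of a region had a median of 3 calls over the replicates. The percent of regions that passed the 50% rule fell with the number of calls. Of the tested regions with 15 to 19 calls 19.2% were 5hmC-dominated, with 20 to 29 calls 14.9% and with at least 30 calls 7.71%, around the 13.8% over all tested regions. Of the 541 regions, 77 stood at exactly 50%, 252 lay under 55% and 184 reached 60%, and 234 further tested regions lay from 45% to under 50%. The lower bound of the exact binomial 95% interval was above 50% in 21 regions. Such an interval covers counting error only, and the calls of 1 read are not independent.

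**Figure D1:**
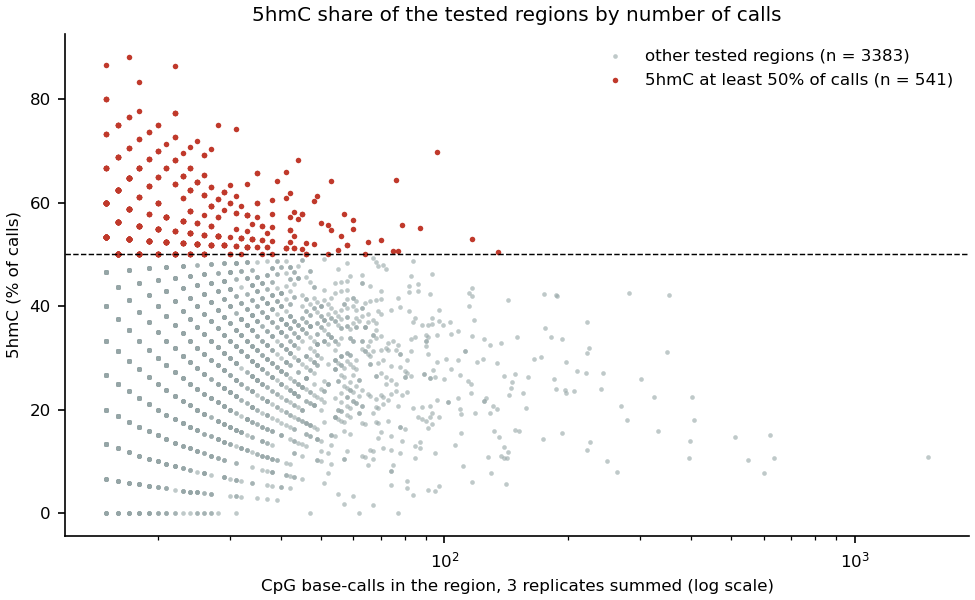
Each point is 1 of the 3924 tested regions, with the number of CpG base-calls summed over 3 replicates on the x axis (log scale) and the share of 5hmC in percent on the y axis; the dashed line is the 50% that chose the red points. The 541 red points lie mostly at few calls, and the region with the most calls among them has 135.

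Just inside the threshold, with 50% each, were a region of Nxn (32 of 64 calls), a redox protein of the thioredoxin family, one of Cacnb4 (26 of 52) and one of Ssx2ip (23 of 46). Just outside were regions of Mtcl1 (33 of 67, 49.3%), Ntm (25 of 51, 49.0%) and Iqschfp (22 of 45, 48.9%). A single call separates the 2 kinds at these depths.

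Most regions of either set were a peak in a single replicate, with 82.6% of the 5hmC-dominated and 84.2% of the other tested regions. Replicates 1, 2 and 3 had 490, 8506 and 5146 peaks on chromosomes 1 to 19. The short list of replicate 1 limits how many regions can have a peak in all 3. Among the 5hmC-dominated regions a peak was called in 1 replicate at 447, in 2 replicates at 91 and in all 3 at 3, and base-calls came from 1 replicate at 76, from 2 at 266 and from all 3 at 199. The 3 regions with a peak in every replicate lay in Emilin3, Nxn and Adcy9. Replicates 1, 2 and 3 had 2609, 6370 and 4254 calls within the regions, of which 54.9%, 57.8% and 57.7% were 5hmC (56.8 ± 1.63%, SD, n = 3). The other tested regions had 25.7%, 27.4% and 27.9% (27.0 ± 1.14%, SD, n = 3). These are the values that chose the regions.

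In the 5hmC-dominated regions 5mC took up 28.4 ± 1.06% and unmodified C 14.9 ± 0.574% of calls (SD, n = 3). Of the calls that were not 5hmC, 65.6%, 65.7% and 65.6% were 5mC in replicates 1, 2 and 3. In the other tested regions these were 53.4%, 54.9% and 56.5%, lower in 3 of 3 replicates. At 77 of the 5hmC-dominated regions (14.2%) no call was unmodified, and at 9 (1.66%) no call was 5mC. The other tested regions had 6.03% and 1.33%, but the rule leaves the 5hmC-dominated regions fewer calls that are not 5hmC, so these counts are not read as a difference. Of 5886 called CpGs in the 5hmC-dominated regions, 2826 (48.0%) had more than 50% of calls as 5hmC and 1295 (22.0%) had none. With 1623 (27.6%) of these CpGs called once, the counts do not tell a mixture of modified and unmodified sites from the sampling of few reads.

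To learn whether the same regions are high in calls that did not choose them, the rule was applied to 2 replicates at a time and the share read in the third. The choice on replicates 2 and 3 gave 451 regions with 57.3% of 5hmC, and replicate 1 had 37.1% of 2283 calls there (exact binomial 95% interval 35.1 to 39.1%). Choosing on replicates 1 and 3 gave 246 regions with 57.1%, and replicate 2 had 39.8% of 3006 calls (38.0 to 41.6%). Choosing on replicates 1 and 2 gave 325 regions with 57.5%, and replicate 3 had 40.0% of 2327 calls (38.0 to 42.0%). The unused replicate thus fell well short of the share that chose the regions. It was still above the regions that passed the same call minimum without being chosen, where the unused replicate had 26.0%, 28.4% and 29.2%. The mean was 38.97 ± 1.62% against 27.9 ± 1.63%, a difference of 11.1 ± 0.301 percentage points (SD, n = 3), in the same direction in 3 of 3 replicates. The two-sided exact permutation test over the 3 differences gave p = 0.25, the smallest that 3 replicates allow. Among regions of 15 to 29 calls, a limit chosen after seeing the data, the mean difference was smaller, at 7.36 percentage points.

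**Figure D2:**
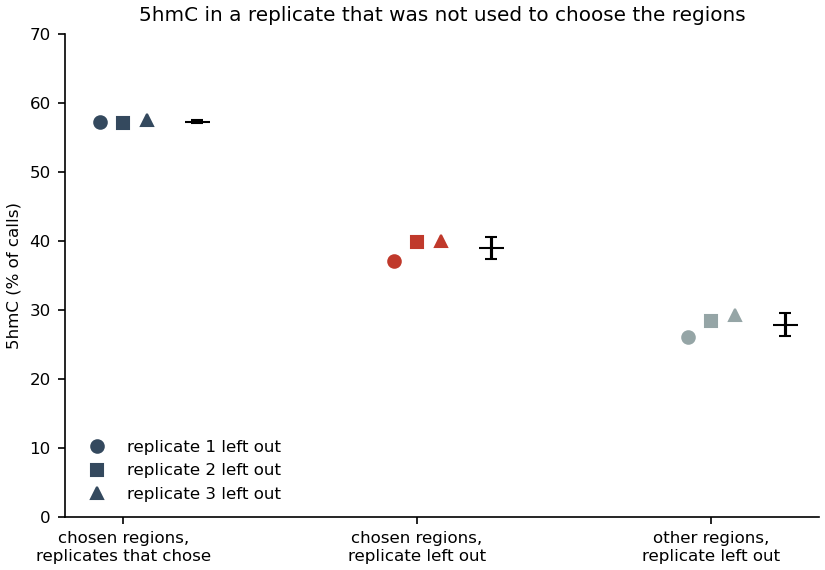
The y axis is the share of 5hmC in percent of base-calls, for regions chosen by the 50% rule in 2 replicates (blue), for the same regions in the replicate left out of the choice (red) and for regions not chosen, in that replicate (grey); symbols mark the replicate left out, and the black line and bar are the mean and 1 SD of the 3 values. The left-out replicate has a mean of 38.97% in chosen regions, below the 57.3% that chose them and above the 27.9% of the others.

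Counted by region, 5hmC reached 50% in the unused replicate 1 at 52 of 167 chosen regions with at least 5 calls there (31.1%), against 22.4% of all regions passing the same minima. In replicate 2 it did so at 52 of 145 (35.9%), against 20% of all, and in replicate 3 at 59 of 147 (40.1%), against 25% of all. In the unused replicates 5mC was 36.1 ± 1.10% in chosen and 37.7 ± 1.00% in other regions, and unmodified C was 24.9 ± 1.21% in chosen and 34.5 ± 2.01% in other regions (SD, n = 3).

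Replicates 2 and 3, which share an antibody, could be compared region by region. Among 1047 tested regions with at least 8 calls in both, Fisher's exact test with Benjamini-Hochberg adjustment called 8 regions different at an adjusted p under 0.05, which is 0.764%, and 116 at an unadjusted p under 0.05. The test sets 1 library against 1 library, covers counting error only and takes calls of the same read as independent, so its p-values are too small. Of the 112 5hmC-dominated regions among them 0 were called, and 8 had an unadjusted p under 0.05. With Boschloo's test 14 of 1047 were called, again 0 of them 5hmC-dominated. The share was higher in replicate 2 at 54 and in replicate 3 at 55 of the 112 regions. At 54 it was at least 50% in both, but these calls took part in the choice. That count is therefore not read as agreement between the replicates. The median absolute difference between both replicates was 19.9 percentage points in the 5hmC-dominated regions and 15.2 in all 1047. These differences include counting error, which depends on the share and is largest near 50%. Both medians are thus not read as a difference in reproducibility. None of the differences was called in the 5hmC-dominated regions. The depth needed to detect a difference of that size was not tested.

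Among the 112 5hmC-dominated regions the lowest unadjusted p belonged to Nr1d1, which encodes the circadian repressor REV-ERBα. It had 5hmC in 18 of 27 calls in replicate 2 and 3 of 14 in replicate 3 (Fisher's exact test, unadjusted p = 0.00884, adjusted p = 0.243). It was singled out after its values were seen.

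Fold enrichment is the ratio of read pileup at a peak summit to the local background as the peak caller gives it. In 5hmC-dominated regions its median was 4.72 at 36 peaks of the first replicate, 3.83 at 382 peaks of the second and 3.87 at 222 peaks of the third. In the other tested regions, with 241, 2278 and 1452 peaks, the medians were equal to these. The fold takes few values, and 22.2%, 27.0% and 29.3% of the peaks in 5hmC-dominated regions stood exactly at the median, so that equal medians and the p = 1 of the exact permutation test (n = 3) say little. The means were 4.94 against 5.21 in replicate 1, 4.03 against 4.02 in replicate 2 and 3.94 against 4.05 in replicate 3. The highest values in 5hmC-dominated regions were 6.61, 7.06 and 6.60, and no comparison of maxima was made, since the sets differ in size.

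The 5hmC-dominated regions lay mainly in introns. By the annotation class that covered most of its bases, 400 of 541 (73.9%) were intronic, 83 (15.3%) exonic, 30 (5.55%) lay within the 1000 bp before a gene and 28 (5.18%) were intergenic. Of the other tested regions 58.6% were intronic, 27.5% exonic, 6.33% in such promoters and 7.54% intergenic. Among regions with a peak in replicate 1 the intronic share was 83.3% against 49.8%, in replicate 2 it was 74.9% against 60.1% and in replicate 3 it was 73.6% against 55.1%. The 5hmC-dominated regions held 36, 382 and 222 peaks of replicates 1, 2 and 3, so the value of replicate 1 rests on few regions. Coding sequence was touched by 17.2% of the 5hmC-dominated and 32.2% of the other tested regions. Regions are not replicates and many are shared between these counts, so they are given with no test.

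Seen from the other side, 16.8% of tested regions in introns were 5hmC-dominated and 8.19% of those in exons. First introns held 191 of the 376 members that could be placed in an intron of the canonical transcript (50.8%), against 734 of 1764 other tested regions so placed (41.6%). The direction for first introns was not shared by replicate 1, where the values were 34.5% and 40.5%. Members held only 36 peaks of that replicate. By strand of the gene, 46.6% of members and 46.4% of the others were in genes on the forward strand.

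**Figure D3:**
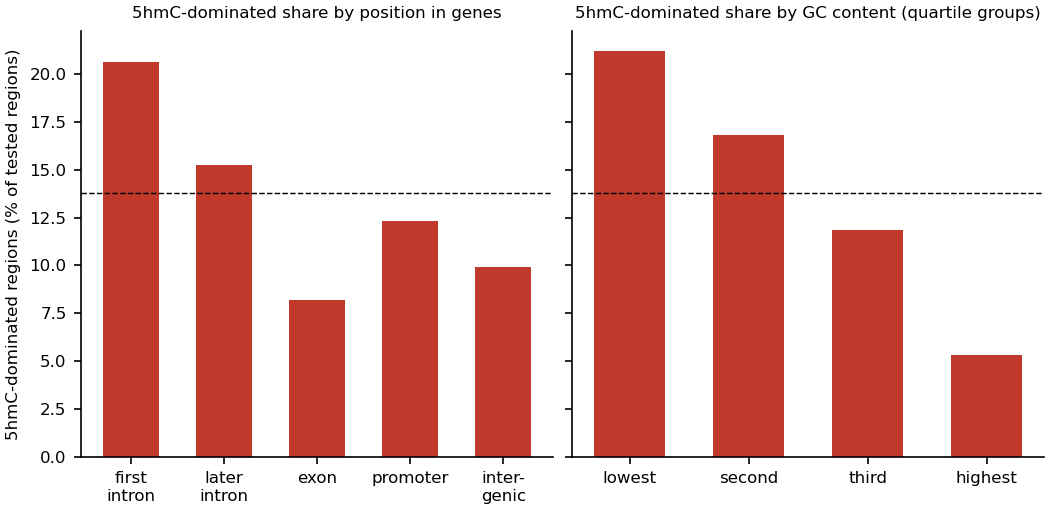
Bars give the percent of tested regions that were 5hmC-dominated, on the left by position in genes and on the right by quartile group of GC content from lowest to highest; the dashed line is the share over all tested regions, and no error bars are drawn, since regions are not replicates. The share is highest in first introns (20.6%) and lowest in exons (8.19%), and it falls from 21.2% in the lowest to 5.30% in the highest quartile group of GC.

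Their base composition differed as well. The median GC content was 49.1% in 5hmC-dominated and 52.2% in other tested regions, and the median number of CpGs per 100 bp was 2.17 against 2.59. Both were lower in the 5hmC-dominated regions among the peaks of each of the 3 replicates. The share of 5hmC-dominated regions was 21.2% in the lowest quartile group of GC, 16.8% in the second, 11.8% in the third and 5.30% in the highest. The number of calls moved with composition. Within regions of 15 to 19 calls the median GC was 48.7% against 50.7% and the intronic share 73.0% against 65.1%. Within regions of at least 30 calls the medians were 49.8% and 54.0% and the intronic shares 74.3% and 49.9%. The part of GC content in the base-caller's assignments was not tested.

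Along the region 5hmC showed no gradient, whereas 5mC fell and unmodified C rose away from the centre in the other tested regions. There 5mC was 41.7% within 100 bp and 36.5% from 400 to 500 bp, and unmodified C was 31.2% and 36.8%. At the same distances the 5hmC-dominated regions had 28.6% and 26.6% of 5mC and 14.0% and 15.1% of unmodified C. In 5hmC-dominated regions 57.4% of calls were 5hmC at CpGs within 100 bp of the centre, 57.4% from 100 to 200 bp, 56.6% from 200 to 300 bp, 57.4% from 300 to 400 bp and 58.3% from 400 to 500 bp. The share differed by the base after the CpG, an observation made after the values were seen and given with no test. Where a C followed, 5hmC was 58.7%, 62.8% and 64.2% of calls in replicates 1, 2 and 3, and where another base followed it was 53.4%, 55.8% and 55.1%. The other tested regions showed the same order at a lower level, with 27.2%, 29.1% and 30.5% against 25.1%, 26.7% and 26.9%. With the base before included, ACGC was highest of the 16 contexts in both sets, at 65.1% and 33.1%.

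The single regions with the most calls belonged to genes of varied function. Counts by replicate of these and other named members are parts of the calls that chose them. Agreement between replicates at 50% is thus partly set by the choice. A region in an exon of Tob2, an antiproliferative protein that recruits a deadenylase (chr15:81735029-81736252), had 5hmC in 68 of 135 calls, with 4 of 16, 31 of 47 and 33 of 72 in replicates 1, 2 and 3. It was at or above 50% in replicate 2 only. In Emilin3, which encodes a glycoprotein of the extracellular matrix, the region chr2:160748815-160750607 had 62 of 117, with 17 of 29, 33 of 66 and 12 of 22. All 3 replicates reached 50% there, and all 3 had a peak, with fold enrichments of 6.61, 4.79 and 4.84. In the same stretch of chromosome 2 lies Lpin3, a phosphatidate phosphatase of the lipin family, whose region had 14 of 19, 20 of 38 and 4 of 18. Replicate 3 alone was below 50%, and its difference from replicate 2 was not called (Fisher's exact test, unadjusted p = 0.0441, adjusted p = 0.428).

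The region outside genes, chr1:134266903-134268141, had the highest share of the 10 regions with the most calls. It had 5hmC in 67 of 96 calls (69.8%), the calls that chose it, with 6 of 9, 28 of 38 and 33 of 49 in replicates 1, 2 and 3, and 21 of its 28 called CpGs had a majority of 5hmC. All replicates were above 60%. Its centre lay 6856 bp from the start of the nearest protein-coding gene. A second intergenic region, on chromosome 2, had 10 of 21, 19 of 37 and 8 of 12.

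Rbfox3 encodes the splicing factor known as NeuN, a marker of neurons that is abundant in granule cells. Its region in intron 4 of 14 had 5hmC in 48 of 87 calls, with 5 of 8, 18 of 43 and 25 of 36 in replicates 1, 2 and 3. The purified-antibody replicates lay on either side of 50% (Fisher's exact test, unadjusted p = 0.0228, adjusted p = 0.328). The repeat in intron 127 of 145 of Syne1, which encodes the giant nuclear envelope protein nesprin, had 3 of 6, 32 of 58 and 9 of 15, at or above 50% in all 3. Elmo2, a partner of DOCK proteins in Rac activation, had 10 of 18, 11 of 21 and 18 of 38. The non-coding RNA gene 4930459C07Rik had 21 of 36 in replicate 2 and 13 of 29 in replicate 3, and no call in replicate 1.

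**Figure D4:**
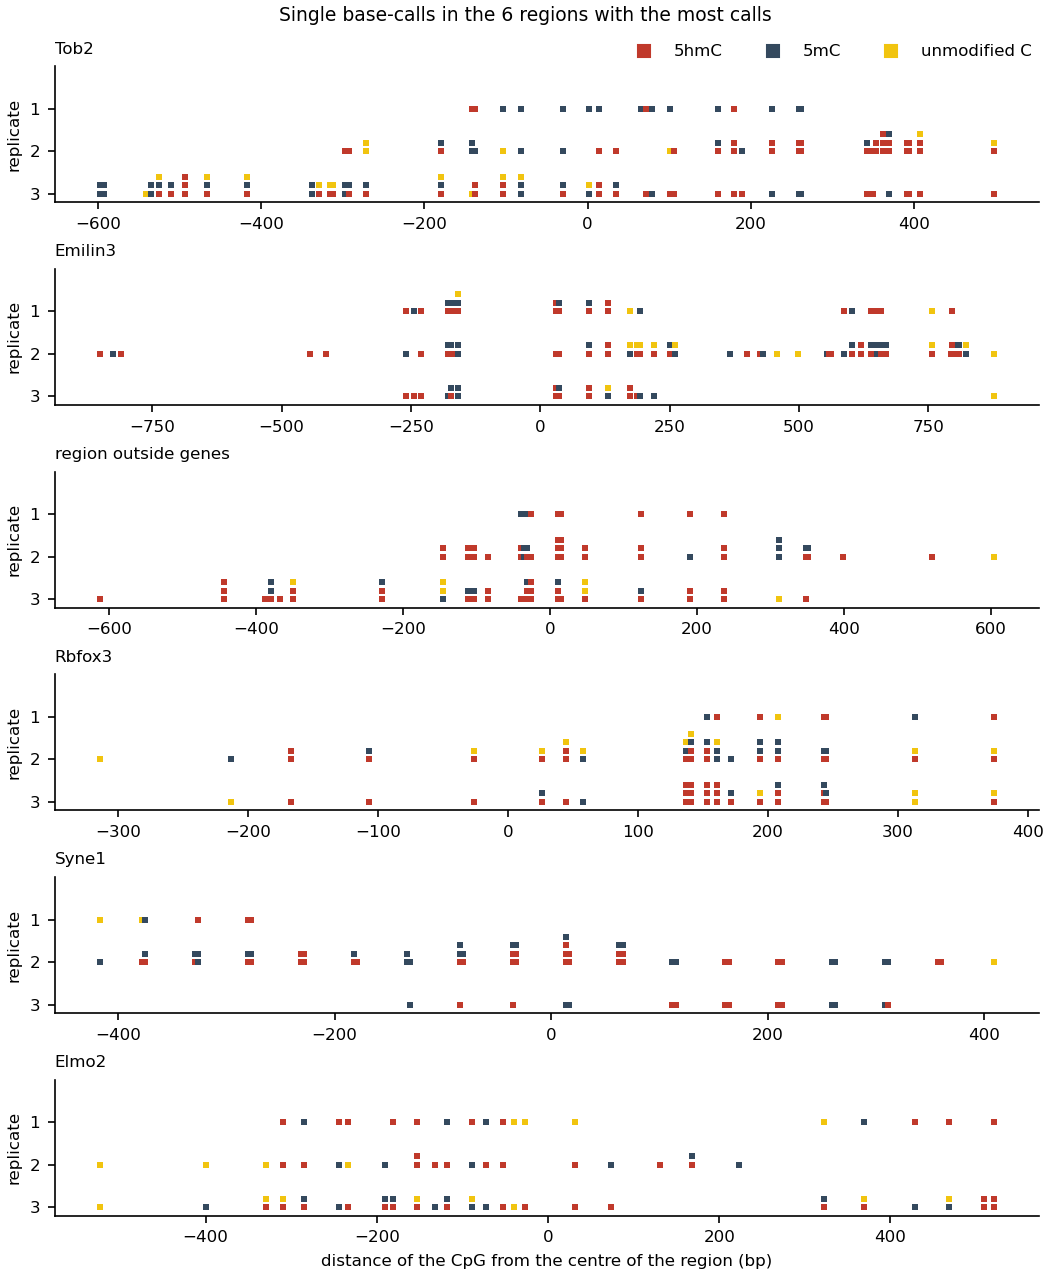
Each square is 1 base-call in the 6 5hmC-dominated regions with the most calls, placed by the distance of its CpG from the centre of the region in bp (x axis) and by replicate (y axis, calls of 1 CpG stacked); red is 5hmC, dark blue 5mC and yellow unmodified C. Calls of 5hmC and 5mC are interleaved along each region.

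The Kcnd2 region (chr6:21216322-21217343) was unlike most in lying wholly in coding sequence. The gene encodes a pore subunit of the A-type potassium channel, which is strong in granule cells. All 1022 bases of the region are coding, and 5hmC was found in 18 of 30 calls in replicate 2 and in 31 of 46 in replicate 3, with no call in replicate 1 (64.5% in all). Both replicates with calls were at 60% or more, in the calls that chose the region. Adcy9, an adenylyl cyclase, also had a wholly coding region of 482 bp, with 6 of 11, 14 of 22 and 10 of 11 calls as 5hmC. It was above 50% in all 3 replicates, again in the calls that chose it. Of its other calls 11 were unmodified and 3 were 5mC.

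Among regions with at least 30 calls, the highest share was in intron 1 of Sh3gl2, the endophilin of synaptic vesicle endocytosis, with 12 of 16 in replicate 2 and 11 of 15 in replicate 3 (74.2% in all). Nlgn1, a postsynaptic adhesion protein, had 10 of 12, 9 of 17 and 4 of 6 (65.7%) in intron 5 of 7. Every replicate with calls was above 50% in both regions, but these are the calls that chose them.

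The members fell on 422 of the 2136 genes that held a tested region, and 33 lay outside all genes. Of the 422 genes 69 held at least 2 members, 14 at least 3 and 3 at least 4. The 3 were Tcf4, a basic helix-loop-helix transcription factor, with 4 of 17 tested regions, Zfp521, a zinc finger transcription factor, with 4 of 7, and Peli2, a ubiquitin ligase of the Pellino family, with 4 of 8. In Zfp521 the 4 members had 57.6% of 33 calls, 54.8% of 42, 62.5% of 24 and 50% of 22, 3 of them in intron 4. In Tcf4 they had 63.6% of 22 calls, 50% of 16, 50% of 22 and 77.8% of 18, 3 of them in intron 3. In Peli2 they had 75% of 20, 59.3% of 27, 55% of 20 and 55.6% of 27.

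Taken over all tested regions of the gene, 5hmC was 37.6% of 497 calls in Tcf4, 46.5% of 329 in Zfp521 and 36.4% of 250 in Peli2. By replicate these were 37.5%, 33.6% and 43.2% in Tcf4, 35.6%, 51.4% and 52.1% in Zfp521 and 39.4%, 39.6% and 30.7% in Peli2. Another 11 genes held 3 members each. The 7 of them with the most calls in their members had between 32.0% (Tiam1, an activator of Rac) and 47.5% (Galnt7, a glycosyltransferase) of 5hmC over all tested regions of the gene. Galnt7 held one of the highest shares of all members, with 13 of 15 calls in intron 1. The remaining 5 were Mical3, Tspan5, Arid1b, Dscaml1 and Ephb1, with 39.5%, 41.5%, 45.9%, 41.7% and 39.3%. Each of these 10 genes also held tested regions below 50%. The 4 genes with fewer calls, outside the naming rule, were Tbc1d8, Ank3 and Slc37a1, in each of which all 3 tested regions were members, with 58.5%, 53.1% and 56.4%, and Farp1, with 3 of 4 and 51.4%.

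**Figure D5:**
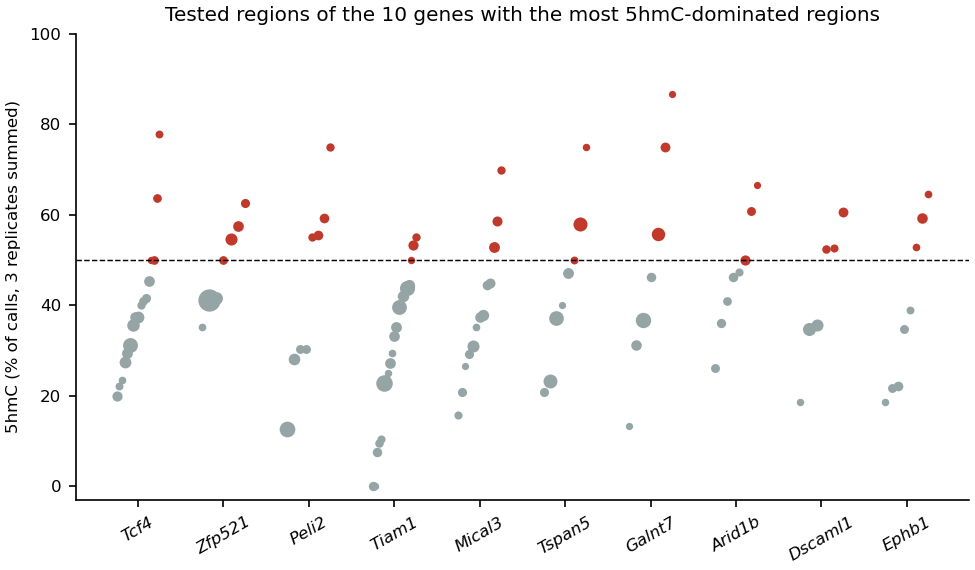
Each dot is a tested region of the gene named on the x axis, at its share of 5hmC in percent (y axis, 3 replicates summed), with the dot's area in proportion to its number of calls; red dots reach the 50% marked by the dashed line, and of the genes with 3 red dots the 7 with the most calls in them are drawn. Regions of 1 gene range widely, in Tiam1 with 3 red dots of 21.

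Whether a member's gene was high elsewhere was asked of the 653 genes with at least 2 tested regions. The other tested regions beside a member had 33.0%, 35.4% and 34.5% of 5hmC in replicates 1, 2 and 3, and those beside a region that was not a member had 32.6%, 34.0% and 32.3%. The difference was 1.34 ± 0.823 percentage points (SD, n = 3; two-sided exact permutation test, p = 0.25, the smallest possible). It was 0.707 for pairs at least 10000 bp apart, and it turned to -1.41 when each gene was weighted once. A member is never counted beside itself, whereas a region that was not a member has every member of its gene beside it. The difference without any link within genes is thus not 0 and was not determined, so no conclusion is drawn from this test. Of the regions beside a member 16.3% were members themselves, and of those beside another region 15.4%. Over regions, so that a gene counts once for each region in it, the median length of the host gene was 129481 bp for members and 82699 bp for other tested regions. With each gene counted once it was 110130 bp for the 422 genes with a member and 43927 bp for the 1714 genes with tested regions but no member. A gene with more tested regions has more chances to hold a member, and these medians were not corrected for that.

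Lists of genes typical of the cerebellum were read against the 13.8% of all tested regions, as counts only. Genes of granule cells, the small excitatory neurons that make up most of the tissue, held 5 members among 17 tested regions, in Rbfox3 with 2 and in Fat2, Reln and Grin2c with 1 each. Their tested regions lay in 5 of the 15 listed genes. They had a median 5hmC share of 41.7% and 39.1% of pooled calls, against 31.6% and 30.2% over all. These values include the calls that chose the members. Fat2, a giant cadherin of parallel fibres, had 4 of 6, 13 of 26 and 2 of 5 calls in a wholly coding region. Reln, which encodes the secreted protein reelin that guides neuron placement, had 13 of 19 calls in replicate 2 and 1 of 7 in replicate 3. Grin2c, an NMDA receptor subunit outside the naming rule, had 6 of 11 and 3 of 4.

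Genes of Purkinje cells, the output neurons of the cerebellar cortex, held 1 member among 7 tested regions, in Rora, a nuclear receptor that these cells need, with 14 of 18 calls in replicate 2 and 1 of 2 in replicate 3. This region was named after its values were seen. The 7 regions lay in only 2 of the 15 listed genes and had a median share of 15.4% and 23.6% of pooled calls. Astroglial genes held 1 of 4, in Slc4a4, a sodium bicarbonate cotransporter, with 3 of 10, 8 of 15 and 6 of 8. The only tested region of oligodendrocyte genes had 13.8% and was not a member, nor were the 2 of the enzymes and readers of 5mC and 5hmC. Genes of inhibitory interneurons and of microglia and vessels held no tested region, so that nothing can be said of them at this depth.

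Genes of potassium and calcium channels held 9 members among 50 tested regions (18%) in 8 genes. Besides Kcnd2, the calcium channel genes Cacna1d and Cacna1c, which encode pore subunits of the L-type, had members in introns. Cacna1d had 4 of 5, 3 of 7 and 8 of 11 calls in replicates 1, 2 and 3, and Cacna1c had 1 of 3 in replicate 1, 14 of 19 in replicate 2 and no call in replicate 3. Cacnb4, an auxiliary subunit, had 12 of 22, 14 of 28 and 0 of 2. Ryr2, a calcium release channel of the endoplasmic reticulum, had 2 of 7 in replicate 1 and 12 of 20 in replicate 3. Glutamate and GABA receptor genes held 3 among 23 (13.04%), 2 of them in Gabbr2, a subunit of the GABA-B receptor, of which the one with more calls had 6 of 9, 7 of 10 and 4 of 8.

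Genes of synaptic adhesion and axon guidance held 11 members among 49 tested regions (22.4%), of which Dscaml1 and Ephb1 held 3 each. Beside Nlgn1, the members included Tenm2, a teneurin, with 6 of 12 calls in replicate 2 and 9 of 15 in replicate 3, and Ntn1, the guidance cue netrin, with 15 of 24 calls, all in replicate 3. Ephb1, a receptor for ephrins, had 0 of 1, 12 of 18 and 7 of 13 in its most deeply called member. The median share of the 49 regions was 35.7%, against 31.6% of all tested regions, whereas 5hmC in their pooled calls was 30.2%, the same as over all tested regions to this precision. For the channel, receptor and astroglial lists the medians were 36.2%, 35% and 34.2% and the pooled shares 34.2%, 30.9% and 35.1%. No list is called particular from these counts.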

How the data were processed

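Peak lists and CpG base-calls of 3 hMeDIP libraries were used. Tool and build names follow the study's methods and the submitters' processing notes. The authors base-called the reads with Dorado 0.5.1, aligned them to mm39 (GRCm39) with minimap2 2.24 and called peaks with MACS2 2.2.6 on each replicate against untreated DNA. The deposited peak lists give fold enrichment as a ratio; their −log10 p- and q-values and display score, as deposited, were not used. With modkit 0.2.8 the authors made counts of 5hmC, 5mC and unmodified calls for each CpG, deposited with the percent of each, which was not used. The files held 69910, 104238 and 75624 calls for replicates 1, 2 and 3, of which 28954, 59494 and 43190 lay in tested regions. These few calls per region limit the precision. At peak summits of 3 reads, CpGs within 15 bp had on average 1.81, 1.68 and 1.65 calls, so that not every read gave one. All CpGs in these files stand on the forward strand. The files do not say whether reads of the other strand were merged in, and without them a share is that of the forward cytosine only.

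Peaks were merged and calls summed in Python 3.11.15 with pandas 2.3.3. All 97024 called positions on chromosomes 1 to 19 were CG in GRCm39. Genes are from GENCODE M39, and each region took the class covering most of its bases and a host gene if it had one. A protein-coding host was the one covering most of the region. Of the 541 members 466 had a protein-coding host and 39 a non-coding RNA gene (lncRNA). Sign-flip permutation tests over replicates were exact, and Fisher's exact tests used scipy 1.17.1. The functions were tested on simulated data. In the comparison with a replicate left out, the limit of 20 calls at a CpG used all replicates.

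The members and gene lists were chosen with earlier results of these data known. Named regions were the 10 members with the most calls, the 5 highest shares with at least 30 calls, members with 3 peaks, up to 15 members by calls in the gene lists, the 10 genes with the most members and the 3 regions on each side of the threshold. Of these, 1 region is not reported here. Alternatives varied the minima of calls, share and fold enrichment, the weighting and the replicates.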

Additional observations from a re-analysis of the deposited data

Results flagged for a closer look

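The choice was limited to chromosomes 1 to 19. On the X chromosome, which the comparisons did not use, the same rule applied to 46 merged regions left 15 with enough calls, and 2 of them had 5hmC in at least 50% of calls. They are listed because they lie in data outside the comparisons, and 2 of 15 is close to the 13.8% of all tested regions on the other chromosomes.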

How the results depend on the processing

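The number of 5hmC-dominated regions, 541, followed the settings. It was 1081 with a minimum of 10 calls, 105 with 30, 1195 at a share of 40%, 184 at 60%, 342 when only calls of replicates with a peak in the region were used, 196 with peaks of at least 4-fold enrichment and 246 to 451 when a replicate was left out, with 246 without replicate 2 and 325 without replicate 3. As a share of tested regions, 13.8%, it was 17.9% with 10 calls, 7.71% with 30, 30.5% at 40% and 4.69% at 60%. Taking call classes apart, an alternative chosen after seeing the data, gave 19.2% for 15 to 19 calls and 7.71% for 30 or more. Without a replicate it was 13.1 to 14.5%. The difference in the unused replicate lay between 7.36 percentage points for 15 to 29 calls and 14.8 at a share of 60% under the 9 alternatives. Those without a replicate only average fewer of the same differences, so their sign was fixed in advance. The difference beside a member in the same gene turned to -1.41 when each gene was weighted once, was 0.707 for pairs at least 10000 bp apart and 0.954 to 1.77 without a replicate; the cause was not tested. Replicates 2 and 3 differed at 2 regions with a minimum of 5 calls and at 14 with Boschloo's test, against 8. The intronic share of members stayed between 72.6% and 75.05% under its 5 alternatives. All samples form 1 group, so there were no groups of samples to pair. Sets of regions were compared within each replicate. Depth limits single regions: 20 calls, the median, leave a wide interval, and all libraries come from 1 animal.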

Other observations

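By chromosome, the share of tested regions that were 5hmC-dominated ran from 9.17% (21 of 229) on chromosome 7 to 19.3% (29 of 150) on chromosome 3. The other chromosomes lay between, and the extremes were picked out of 19 after their values were seen. Calls listed as failed in the pileups made up 2.39%, 4.45% and 2.39% in the 5hmC-dominated regions of replicates 1, 2 and 3 and 2.76%, 4.06% and 3.35% in the other tested regions, with no common direction. Members with a share of at least 80% numbered 7, and the highest was in intron 1 of Fgd4, an activator of the GTPase Cdc42, with 15 of 17 calls, of which replicate 2 gave 9 of 11 and replicate 3 gave 5 of 5.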
